A study of Homo sapiens with 24 samples.

Results

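The small leucine-rich proteoglycan genes LUM, DCN, BGN, EPYC, OGN, FMOD, PRELP, ASPN, KERA and OMD are 10 of the 20503 genes with a RefSeq symbol on the array. Each was taken through every probe whose RefSeq transcript, as the scanner files name it, belongs to the gene, which gave 13 probes. The cells were HepaRG, a human line from a hepatocellular carcinoma, which can form hepatocyte-like and biliary-like cells. Total RNA of 24 samples, 3 for each of 8 conditions, was labelled with Cy3 and read on one-colour Agilent arrays. The study asks how these cells answer Wnt3a, and what of the answer is left when beta-catenin is lowered or Wnt proteins are bound outside the cell.

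The samples called NT were neither transfected nor stimulated, and NT_Wnt3a received mouse recombinant Wnt3a at 200 ng/ml. FZD8CRD received mouse FZD8_CRD, the Wnt-binding domain of a Frizzled receptor, at 300 ng/ml, and FZD8CRD_Wnt3a received both proteins. Stimulation lasted 72 hours in medium without serum. The samples siCTRL and siCTNNB1 were electroporated in suspension with 80 pmol of a control siRNA or of an siRNA against CTNNB1, the gene of beta-catenin, and siCTRL_Wnt3a and siCTNNB1_Wnt3a also received Wnt3a. 1 siRNA reagent was used against CTNNB1 and 1 as control. The transfected cells had been detached and seeded anew, so transfection here may include those steps. The paper describes such steps also for untransfected cells given Wnt3a-conditioned medium, and whether the NT samples went through them was not established here. Each slide held 1 array of every condition, always at the same place: Wnt3a arrays in row 2, and NT, siCTRL, siCTNNB1 and FZD8CRD, without or with Wnt3a, in columns 1, 2, 3 and 4. Row and Wnt3a, and column and siRNA or FZD8_CRD, cannot be told apart.

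Small leucine-rich proteoglycans are secreted matrix proteins whose curved, repeat-built cores sit on collagen fibrils and set how thick and how closely packed the fibrils become. Most carry glycosaminoglycan chains: decorin (DCN) and biglycan (BGN) carry chondroitin or dermatan sulfate, while lumican (LUM), fibromodulin (FMOD), keratocan (KERA) and osteomodulin (OMD) carry keratan sulfate, and several bind growth factors such as TGF-beta. In the liver they are known mainly as products of stellate cells and fibroblasts, and DCN, LUM and BGN are part of the scar matrix.

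Values below are log2 signals relative to the 75th percentile of the same array, and -6.13 is the floor, set at the median over arrays of the dimmest signal marked well above background by the scanner software. A gene was tested where a probe of it was well above background in all 3 arrays of at least 1 condition, and called where limma's adjusted p over all 24648 genes tested was under 0.05. The p-values measure the spread between these samples. Since RNA came from whole cultures, fewer cells of a type and less RNA per cell cannot be told apart.

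The array of FZD8CRD replicate 3 stood apart from its label. Over 24609 genes it correlated with the 3 FZD8CRD_Wnt3a arrays at r = 0.9924, 0.9940 and 0.9961, and with the other 2 FZD8CRD arrays at 0.9864 and 0.9881. Of the 24 arrays, 8 had a higher mean r with another condition than with their own, some by little (FZD8CRD replicate 1 at 0.9906 with its own and 0.9907 with siCTRL). NT_Wnt3a replicate 2 stood at 0.9877 with its own and 0.9918 with siCTRL_Wnt3a. Without that array 187 genes were called for Wnt3a without transfection, in place of 1335. FZD8CRD replicate 3 had the widest gap, 0.9872 with its own and 0.9942 with FZD8CRD_Wnt3a. Whether this sample was exchanged with another, or came into contact with Wnt3a, was not tested, and the members' changes and order that use FZD8CRD, and the counts of 5 gene lists for Wnt3a with FZD8_CRD, are given with and without it.

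**Figure D1:**
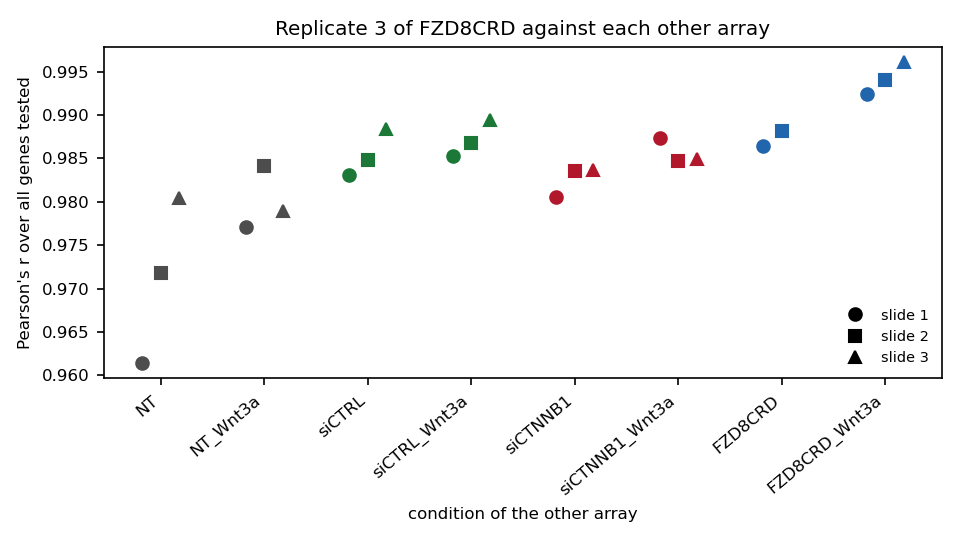
Pearson's r of FZD8CRD replicate 3 with each of the other 23 arrays, by condition, with the slide as the symbol. The 3 FZD8CRD_Wnt3a arrays lie highest, at 0.9924 to 0.9961, above the other 2 arrays of its own condition.

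Of the 10 members, 5 were tested: LUM, DCN, EPYC, FMOD and OMD. LUM (probe A_23_P99063, transcript NM_002345), DCN (A_23_P64873, NM_001920) and FMOD (A_23_P114883, NM_002023, 10 spots per array) were well above background on all 24 arrays. OMD (A_23_P94397, NM_005014) was so on 22 arrays and EPYC (A_23_P87678, NM_004950), the gene of epiphycan, on 16. OGN, PRELP, ASPN and KERA, the genes of osteoglycin, prolargin, asporin and keratocan, were well above background on 0 of 24 arrays. BGN (A_23_P34126, NM_001711) was seen on 9 arrays, with the highest value, -3.69, in siCTRL_Wnt3a replicate 1, while replicates 2 and 3 of that condition stood at -5.44 and -5.83. That single array was the brightest for BGN, at 7.77% of the 75th percentile, and BGN, in no condition well above background on all 3 arrays, was not tested.

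**Figure D2:**
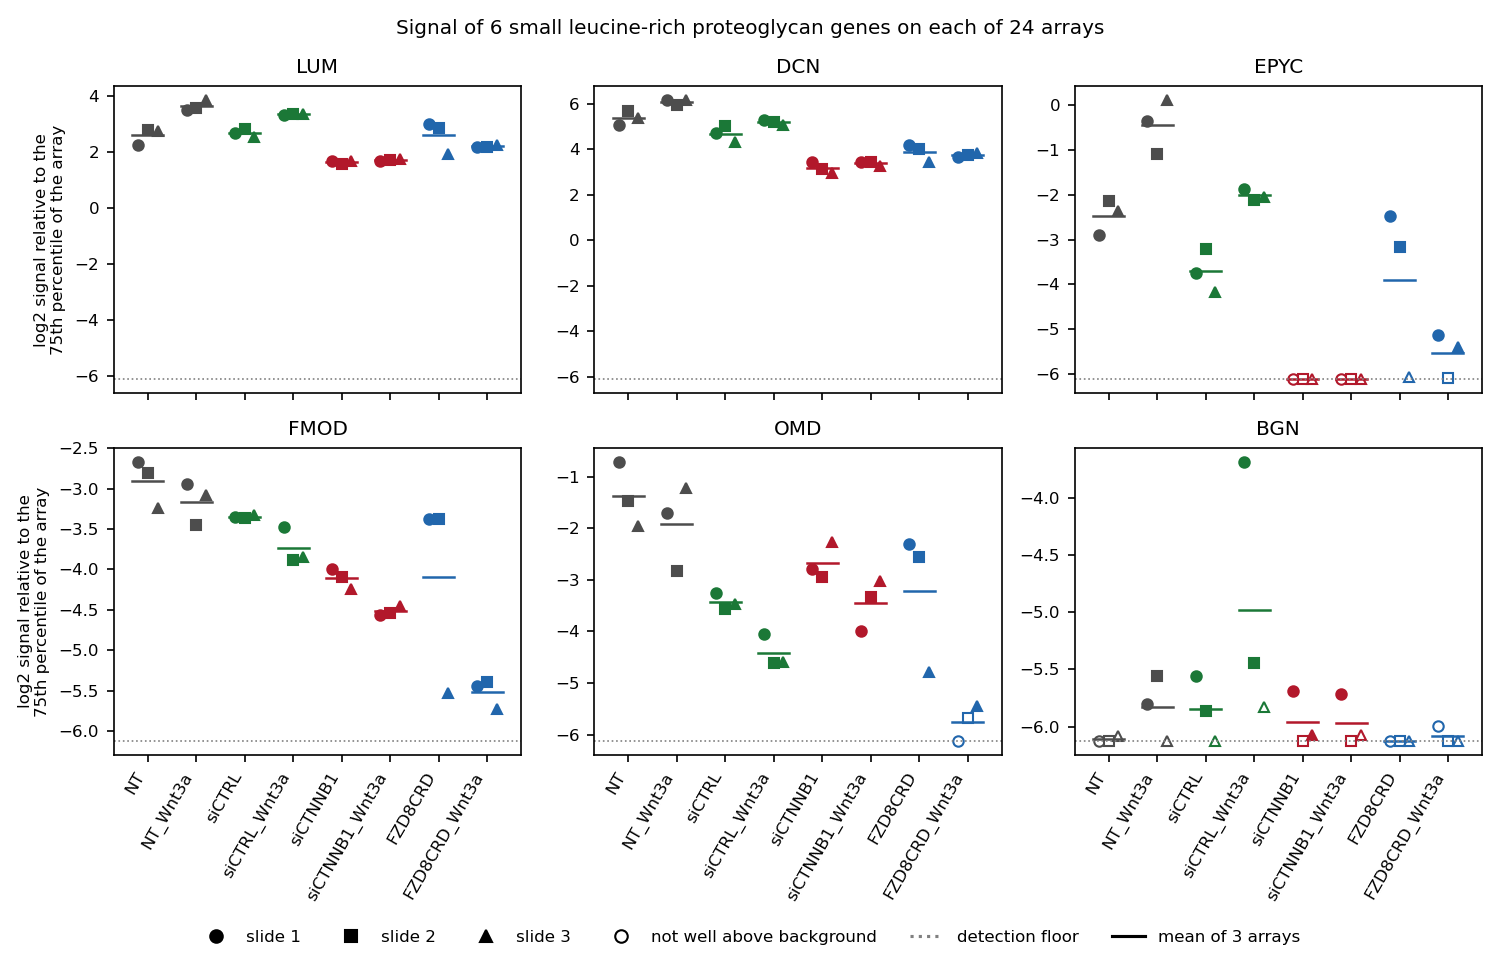
Log2 signal of LUM, DCN, EPYC, FMOD, OMD and BGN on each array, by condition, with the slide as the symbol, open symbols for spots not well above background, a line for the mean of 3 arrays and a dotted line for the floor at -6.13. EPYC sits on the floor in all 6 arrays with CTNNB1 siRNA, and FZD8CRD replicate 3 lies below the other 2 arrays of its condition in all 5 tested genes.

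The targeted gene was lowered where the labels say so. CTNNB1 read 3.35, 3.38 and 3.52 with control siRNA and 0.26, 0.36 and 0.52 with CTNNB1 siRNA, and the groups did not overlap. Its log2 change was -3.04 without Wnt3a (SE 0.17, adjusted p = 1.46e-09) and -3.02 with it (adjusted p = 9.65e-10), lower on 3 of 3 slides each time. AXIN2, a feedback inhibitor that beta-catenin turns on in many cells, rose with Wnt3a by 0.37 without transfection (adjusted p = 0.0410) and by 0.60 after control siRNA (adjusted p = 0.00632), higher on 3 of 3 slides in both. The first of these calls was kept in 6 of 12 other ways of processing and in 2 of 9 fits without 1 slide or array (adjusted p up to 0.531), the other in 11 of 12 and 6 of 9. With arrays scaled to 7 spike-in probes in place of the 75th percentile, the median of all genes in the first of these comparisons moved to -0.37. AXIN2 then stood at -0.02 with its sign turned, or 0.35 relative to that median. Without Wnt3a, mean AXIN2 was not lower with CTNNB1 siRNA (0.17) than with control siRNA (0.06). With Wnt3a it was, at -0.08 against 0.66. With FZD8_CRD it was -0.20 against 0.40 in NT, and with Wnt3a -0.06 against 0.77. These 3 falls were called, each kept in 9 of 9 fits without 1 slide or array.

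Without transfection, Wnt3a raised 3 of the 5 tested members, DCN, LUM and EPYC, and lowered 0, against 3.13% of all genes raised and 2.29% lowered. DCN, whose product holds fibrils apart and binds TGF-beta, read 5.07, 5.68 and 5.36 in the 3 NT arrays and 6.16, 5.94 and 6.15 in NT_Wnt3a. LUM, whose product does the same for fibrils in cornea and skin, read 2.25, 2.78 and 2.74 in NT and 3.49, 3.57 and 3.85 in NT_Wnt3a. Both genes were higher in every Wnt3a array than in any NT array. EPYC, known from the growth plate of cartilage, read -2.90, -2.15 and -2.37 in NT and -0.35, -1.09 and 0.12 in NT_Wnt3a, again with no overlap. LUM rose by 1.04 (SE 0.19, 2.06-fold, adjusted p = 0.00436), with slide differences of 1.24, 0.79 and 1.105. DCN rose by 0.72 (SE 0.18, adjusted p = 0.0271), with slide differences of 1.098, 0.26 and 0.79. EPYC rose by 2.03 (SE 0.57, adjusted p = 0.0432), with slide differences of 2.55, 1.06 and 2.48.

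A second DCN probe (A_33_P3382856, NM_133507), looked at after the data were seen, went the same way as the first in all 13 comparisons and rose by 0.78 here (adjusted p = 0.00641). Under the spike-in scaling all 3 members lost their calls (adjusted p = 0.265 for LUM, 0.495 for DCN and 0.109 for EPYC); relative to the median of all genes LUM stood at 1.02, DCN at 0.69 and EPYC at 2.00. The calls rest on the spread pooled over all 8 conditions: from the 6 arrays of these 2 conditions alone, adjusted p was 0.270 for LUM, 0.407 for DCN and 0.270 for EPYC, and 2 genes of all were called in place of 1335. LUM kept its call without any 1 array and lost it without slide 1 (0.95, 0.183) or slide 2 (1.17, 0.293). DCN lost it with no filter on dim probes (0.72, 0.0674) and EPYC did so too (2.03, 0.101), as well as with a floor of 1 intensity unit (2.03, 0.0544) or no intensity trend (2.03, 0.0555). DCN lost it without slide 1 (0.52, 0.402), slide 2 (0.94, 0.325), NT replicate 1 (0.56, 0.146), NT_Wnt3a replicate 1 (0.68, 0.0634) or NT_Wnt3a replicate 2 (0.79, 0.0827), and EPYC without slide 1 (1.77, 0.391), slide 2 (2.52, 0.604), NT replicate 1 (1.82, 0.166), NT_Wnt3a replicate 1 (1.98, 0.0839), NT replicate 2 (2.19, 0.0899), NT_Wnt3a replicate 2 (2.35, 0.0936) or NT_Wnt3a replicate 3 (1.75, 0.0773), where the values in brackets are log2 change and adjusted p.

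The keratan sulfate proteoglycan genes FMOD and OMD were not called in that comparison. FMOD read -2.67, -2.81 and -3.24 in NT and -2.94, -3.46 and -3.08 in NT_Wnt3a, a difference of -0.26 (SE 0.36, adjusted p = 0.802). OMD read -0.71, -1.46 and -1.95 in NT and -1.71, -2.83 and -1.22 in NT_Wnt3a, a difference of -0.55 (SE 0.50, adjusted p = 0.622). The groups overlapped for both, and each was lower with Wnt3a on slides 1 and 2 and higher on slide 3.

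After control siRNA, 0 members were called with Wnt3a, where 1.06% of all genes were raised and 0.953% lowered, and limma gave 3462 genes at an unadjusted p under 0.05. LUM read 2.67, 2.80 and 2.52 in siCTRL and 3.31, 3.36 and 3.33 in siCTRL_Wnt3a. DCN read 4.71, 5.01 and 4.33 and 5.27, 5.20 and 5.07, and EPYC -3.75, -3.22 and -4.17 and -1.86, -2.12 and -2.04, in the same order. For these 3 genes the Wnt3a arrays all lay above the others, with differences of 0.67 for LUM (adjusted p = 0.0714), 0.50 for DCN (adjusted p = 0.180) and 1.71 for EPYC (adjusted p = 0.135), each higher on 3 of 3 slides. From the 6 arrays of these 2 conditions alone, 1307 genes (5.30% of all) and 3 members were called, LUM and EPYC (adjusted p = 0.0104 and 0.0166) and, as lower, OMD (0.0440). The study called a gene at an unadjusted p below 0.01 where its fold was above 1.5 or below 0.7. By these thresholds 2.74% of all genes passed after control siRNA with 2 members, LUM and EPYC, and 4.35% without transfection with 3 members, LUM, DCN and EPYC. The second DCN probe passed the adjusted threshold (0.59, adjusted p = 0.0439). The response after control siRNA was set against that without transfection directly, and limma called 0 genes (0.00% of all) and 0 members, with 1181 genes at an unadjusted p under 0.05, so no difference between these responses was shown for any member.

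FMOD and OMD, which bind collagen in tendon and bone, lay lower with Wnt3a in every siCTRL pair, without a call over all 8 conditions. FMOD read -3.35, -3.37 and -3.33 in siCTRL and -3.47, -3.88 and -3.84 in siCTRL_Wnt3a, a difference of -0.39 (adjusted p = 0.791). OMD read -3.25, -3.57 and -3.47 and -4.05, -4.60 and -4.60, a difference of -0.98 (adjusted p = 0.400). For both genes the Wnt3a arrays lay below all 3 others, on 3 of 3 slides.

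CTNNB1 siRNA lowered the same 3 genes that Wnt3a raised, DCN, LUM and EPYC, both without and with Wnt3a, where 6.30% and 6.58% of all genes fell. LUM read 1.67, 1.57 and 1.69 in siCTNNB1 and 1.68, 1.72 and 1.75 in siCTNNB1_Wnt3a, below every siCTRL and siCTRL_Wnt3a array. DCN read 3.44, 3.13 and 2.95 and 3.44, 3.42 and 3.26, also below all of them. EPYC was not well above background on any of the 6 arrays with CTNNB1 siRNA, so its change is a bound. LUM changed by -1.02 without Wnt3a (SE 0.19, adjusted p = 0.00137) and -1.62 with it (adjusted p = 9.46e-06). DCN changed by -1.51 (SE 0.18, adjusted p = 2.31e-05) and -1.81 (adjusted p = 1.89e-06). EPYC was at least 5.33-fold lower without Wnt3a (adjusted p = 0.00895) and at least 14.3-fold lower with it (adjusted p = 6.35e-05). Each of these 6 differences was lower on 3 of 3 slides. EPYC lost the first of its calls without slide 1 (-2.43, adjusted p = 0.131). Without slide 2 the differences without Wnt3a were -0.92 for LUM (adjusted p = 0.119) and -2.16 for EPYC (adjusted p = 0.207), and under the spike-in scaling LUM lost its call there too, at -0.99 relative to the median of all genes.

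FMOD and OMD were not called with this siRNA, though for each the groups stood apart. FMOD read -3.996, -4.09 and -4.24 in siCTNNB1 and -4.56, -4.54 and -4.45 in siCTNNB1_Wnt3a, -0.76 and -0.78 from control siRNA (adjusted p = 0.218 and 0.208). OMD read -2.79, -2.95 and -2.27 and -3.99, -3.34 and -3.02, 0.76 and 0.97 from control siRNA (adjusted p = 0.413 and 0.277). OMD was thus the only tested member whose 3 CTNNB1 siRNA arrays all lay above the control siRNA arrays, in both settings. From the 2 compared conditions alone all 5 tested members and 17.3% of all genes were called without Wnt3a, FMOD and OMD included (adjusted p = 0.00782 and 0.0489), and with Wnt3a FMOD was (0.0350) and OMD was not (0.102).

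Wnt3a given on top of CTNNB1 siRNA changed 0 of the 5 tested members, where 0.0365% of all genes rose and 0.00406% fell and limma gave 2585 genes at an unadjusted p under 0.05. By the thresholds of the study 1.29% of all genes passed, again with 0 members. The differences were 0.08 for LUM (SE 0.19, adjusted p = 0.980) and 0.20 for DCN (SE 0.18, adjusted p = 0.810), with overlapping groups, and none can be given for EPYC, which was at the floor on both sides. For FMOD the difference was -0.41 (adjusted p = 0.800) and for OMD -0.78 (adjusted p = 0.649), both lower on 3 of 3 slides with the groups apart. The response after CTNNB1 siRNA minus that after control siRNA was -0.59 for LUM (SE 0.27, -0.63, -0.40 and -0.75 by slide) and -0.30 for DCN (SE 0.26, -0.56, 0.10 and -0.43 by slide). With 0 members and 4 genes of all called (0.0162%) and 819 genes at an unadjusted p under 0.05, this direct test in limma over all 8 conditions did not show that the siRNA changed the response of any member. From the 4 conditions compared alone it called 43 genes (0.174% of all) and 1 member, LUM (adjusted p = 0.0467), with EPYC at 0.0584.

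With FZD8_CRD, Wnt3a raised 0 members and lowered 2, FMOD and OMD, where 4.54% of all genes rose and 3.70% fell. FMOD read -3.38, -3.38 and -5.53 in FZD8CRD and -5.44, -5.39 and -5.73 in FZD8CRD_Wnt3a. OMD read -2.30, -2.55 and -4.78 and -6.13, -5.68 and -5.44, with 1 of 3 arrays of the latter well above background and replicate 1 at the floor, so the sizes of OMD changes against this condition are not exact. Replicate 3 of FZD8CRD lay among the Wnt3a arrays in FMOD and above them in OMD, apart from the other 2 FZD8CRD arrays in both genes. FMOD fell by 1.43 (SE 0.36, adjusted p = 0.0196) with all arrays and by 2.14 without FZD8CRD replicate 3 (adjusted p = 1.61e-07). OMD fell by 2.54 (SE 0.50, adjusted p = 0.00447) and without that array by 3.32 (adjusted p = 7.77e-06). Both were lower on 3 of 3 slides, by -2.06, -2.01 and -0.20 for FMOD and -3.83, -3.12 and -0.66 for OMD. FMOD lost its call without slide 1 (-1.11, 0.634), slide 2 (-1.13, 0.561), FZD8CRD replicate 1 (-1.07, 0.178), FZD8CRD_Wnt3a replicate 1 (-1.47, 0.0577), FZD8CRD replicate 2 (-1.07, 0.170), FZD8CRD_Wnt3a replicate 2 (-1.49, 0.0533) or FZD8CRD_Wnt3a replicate 3 (-1.32, 0.0727), and OMD without slide 1 (-1.89, 0.480), slide 2 (-2.25, 0.359) or FZD8CRD replicate 1 (-2.08, 0.0516). FMOD also lost it with no filter on dim probes (-1.43, 0.0508) and under the spike-in scaling (-1.44 relative to the median of all genes, 0.102). From these 2 conditions alone adjusted p was 0.316 and 0.220.

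LUM, DCN and EPYC, which Wnt3a raised in the absence of FZD8_CRD, were not raised in its presence. LUM read 2.99, 2.86 and 1.90 in FZD8CRD and 2.19, 2.18 and 2.25 in FZD8CRD_Wnt3a. DCN read 4.19, 4.004 and 3.45 and 3.67, 3.73 and 3.81. EPYC read -2.47, -3.18 and -6.08 and -5.12, -6.10 and -5.39, replicate 3 of the first group and replicate 2 of the other not being well above background. Replicates 1 and 2 of FZD8CRD thus lay above every FZD8CRD_Wnt3a array in all 3 genes, while replicate 3 lay below them in LUM and DCN and beside the floor in EPYC. The differences with all arrays were -0.38 for LUM (adjusted p = 0.273), -0.14 for DCN (adjusted p = 0.778) and -1.63 for EPYC (adjusted p = 0.0876). Without FZD8CRD replicate 3, 19.8% of all genes were called and LUM and EPYC fell, with log2 changes of -0.72 (adjusted p = 0.000391) and -2.72 (adjusted p = 1.02e-05), while DCN stood at -0.36 (adjusted p = 0.175). By the thresholds of the study, with all arrays, 5.74% of all genes passed with 3 members, EPYC, FMOD and OMD.

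**Figure D3:**
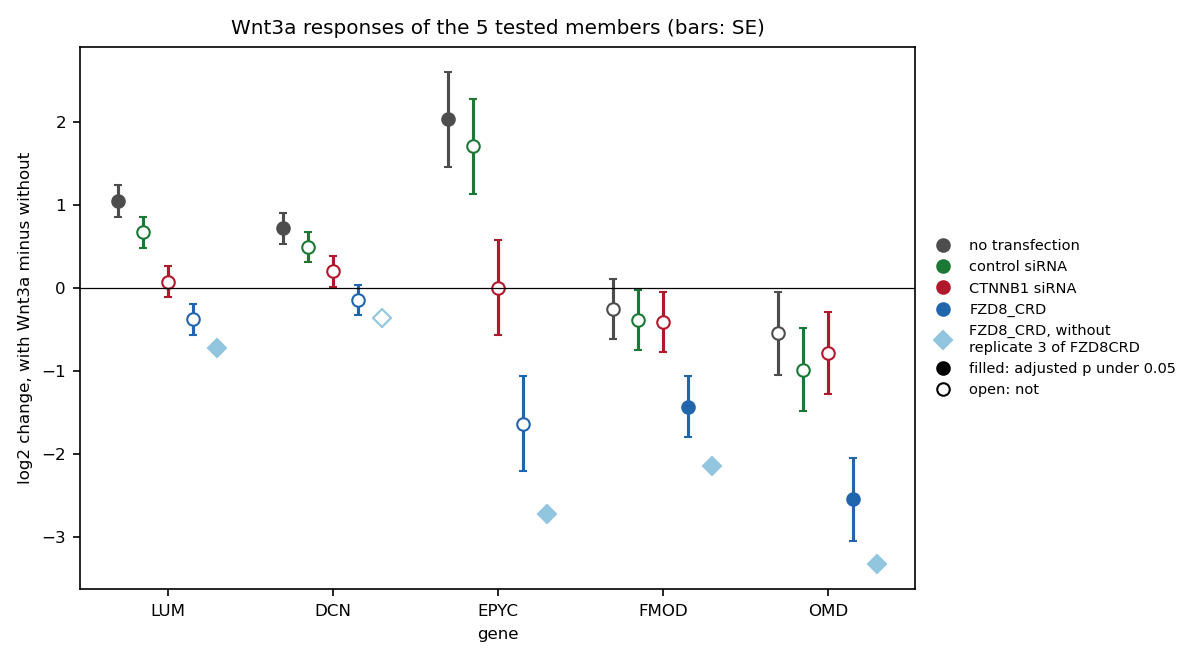
Log2 change with Wnt3a for the 5 tested members in cells without transfection, after control siRNA, after CTNNB1 siRNA and with FZD8_CRD, with bars for the SE, and as diamonds, without bars, the last of these without FZD8CRD replicate 3. Filled symbols mark an adjusted p under 0.05: LUM, DCN and EPYC lie above 0 without transfection, and FMOD and OMD lie below 0 with FZD8_CRD.

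The Wnt3a response with FZD8_CRD minus the response without it was tested directly, and 1 of the 5 members, LUM, was called, where 0.0730% of all genes were. For LUM it was -1.42 (SE 0.27, adjusted p = 0.0478), or -2.04, -1.47 and -0.76 by slide, negative on 3 of 3. For EPYC it was -3.66 (SE 0.81, adjusted p = 0.0741, or 0.0466 with the slide as a block), or -5.20, -3.98 and -1.80 by slide, and for DCN -0.86 (adjusted p = 0.160). OMD stood at -1.99 (adjusted p = 0.225) and FMOD at -1.17 (adjusted p = 0.343), so all 5 differences were negative on 3 of 3 slides; the sizes for OMD and EPYC rest on conditions with arrays not well above background. Without FZD8CRD replicate 3 all 5 members were called, where 7.77% of all genes were: LUM at -1.76 (adjusted p = 2.81e-06), EPYC at -4.75, OMD at -2.78, FMOD at -1.89 and DCN at -1.08 (adjusted p = 0.00724). The call of LUM with all arrays was kept in 4 of 11 other ways of processing, and lost among others with normexp background correction run on the median spot signal (-1.37, 0.0686), the spike-in scaling (-1.43 relative to the median of all genes, 0.652) and the deposited values (-1.43, 0.0560), the log2 change standing first. It was also lost without slide 1 (-1.11, 1.00), slide 2 (-1.40, 1.00), NT replicate 1 (-1.25, 0.146), FZD8CRD replicate 1 (-1.22, 0.164), NT_Wnt3a replicate 1 (-1.496, 0.0713), FZD8CRD_Wnt3a replicate 1 (-1.42, 0.144), NT replicate 2 (-1.52, 0.0911), FZD8CRD replicate 2 (-1.29, 0.226), NT_Wnt3a replicate 2 (-1.46, 0.0881), FZD8CRD_Wnt3a replicate 2 (-1.41, 0.118) or FZD8CRD_Wnt3a replicate 3 (-1.44, 0.101).

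Set against cells without it, FZD8_CRD lowered DCN, EPYC, FMOD and OMD without Wnt3a, 4 of the 5 tested members where 22.0% of all genes fell, and all 5 with Wnt3a, where 18.9% fell. These comparisons share their arrays with the Wnt3a responses above. DCN fell by 1.49 without Wnt3a (SE 0.18, adjusted p = 3.12e-06) and by 2.35 with it (adjusted p = 1.12e-07). OMD fell by 1.84 (adjusted p = 0.00556) and 3.83 (adjusted p = 9.79e-06, against a condition with 1 of 3 arrays well above background), and FMOD by 1.19 (adjusted p = 0.0120) and 2.36 (adjusted p = 5.02e-05). Every FZD8CRD array lay below every NT array for DCN, FMOD and OMD, and with Wnt3a the groups stood apart for all 5 genes. LUM, the keratan sulfate proteoglycan that Wnt3a raised, differed by -0.01 without Wnt3a (adjusted p = 0.980) and fell by 1.43 with it (adjusted p = 1.15e-05), lower on 3 of 3 slides. EPYC changed by -1.44 without Wnt3a (adjusted p = 0.0491), with slide differences of 0.42, -1.03 and -3.71, and by -5.10 with it (adjusted p = 2.496e-06), with 2 of 3 arrays well above background in each FZD8CRD condition. Without FZD8CRD replicate 3, 40.6% of all genes were called without Wnt3a: EPYC then differed by -0.35 (adjusted p = 0.431) and lost its call, as it did without slide 2 (-1.64, 0.152), slide 3 (-0.30, 0.551), NT replicate 1 (-1.65, 0.0546), NT replicate 2 (-1.28, 0.131) or NT replicate 3 (-1.39, 0.102), LUM was called as higher, at 0.33 (adjusted p = 0.0425), and DCN, FMOD and OMD stayed lower, at -1.27, -0.47 and -1.05. FMOD lost its call there without slide 1 (-1.43, 0.0563) or NT replicate 1 (-1.07, 0.0503). With all arrays EPYC kept its call without Wnt3a in 4 of 10 other ways of processing, and lost it with quantile normalization (-1.201, 0.101), the deposited values (-1.201, 0.118), no filter (-1.44, 0.116), a floor of 1 intensity unit (-1.44, 0.0613) and no intensity trend (-1.44, 0.0571). From the 2 conditions without Wnt3a alone, 1 member, DCN, was called where 25.6% of all genes were (adjusted p = 0.00568).

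**Figure D4:**
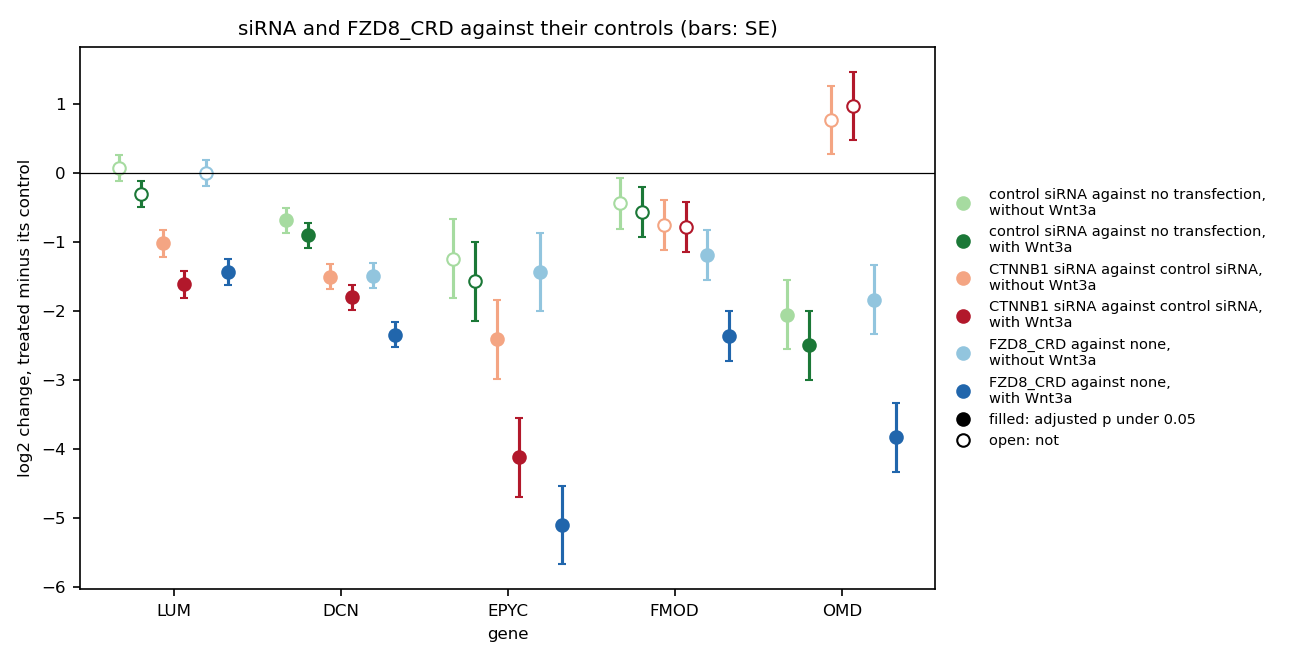
Log2 change of the 5 tested members with control siRNA, CTNNB1 siRNA and FZD8_CRD against their controls, without and with Wnt3a, with bars for the SE and filled symbols for an adjusted p under 0.05. LUM, DCN and EPYC lie below 0 with CTNNB1 siRNA, OMD lies above 0 there, and all 5 lie below 0 with FZD8_CRD and Wnt3a; EPYC is at the floor with CTNNB1 siRNA, so its points there are not exact sizes, and OMD in FZD8CRD_Wnt3a was well above background on 1 of 3 arrays.

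Scaling to the 7 spike-in probes moved the median of all genes by more than 0.1 in most comparisons, and the split between genes raised and lowered with it. For Wnt3a without transfection 25 genes were then raised and 267 lowered, in place of 771 and 564, and for Wnt3a after control siRNA 57 and 1 in place of 262 and 235, at a median of 0.18. For Wnt3a with FZD8_CRD they were 164 and 82 in place of 1118 and 912, with a median of -0.07 and OMD still called, at -2.61 relative to it. For CTNNB1 siRNA with Wnt3a they were 41 and 609 in place of 985 and 1622, at a median of -0.21, relative to which LUM stood at -1.60 and DCN at -1.79. For FZD8_CRD they were 555 and 6833 in place of 4888 and 5428 without Wnt3a, at a median of -0.47, and 660 and 1672 in place of 4502 and 4654 with it, at a median of -0.16. Relative to these medians DCN stood at -1.42 and -2.28, OMD at -1.76 and -3.80, and FMOD at -1.105 and -2.26.

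Transfection with control siRNA lowered 2 of the 5 tested members, DCN and OMD, without Wnt3a and with it, where 10.0% and 3.61% of all genes fell. OMD had log2 changes of -2.06 without Wnt3a (SE 0.50, adjusted p = 0.00534) and -2.496 with it (adjusted p = 0.00621), and all siCTRL values lay below all NT values. DCN fell by 0.69 (SE 0.18, adjusted p = 0.00959) and 0.90 (adjusted p = 0.00628), lower on 3 of 3 slides as OMD was. Without Wnt3a OMD lost its call without slide 1 (-1.81, 0.141) or slide 2 (-2.04, 0.0853), and DCN without slide 1 (-0.85, 0.0688), slide 2 (-0.69, 0.0869), NT replicate 2 (-0.53, 0.0625) or siCTRL replicate 3 (-0.51, 0.0698). With Wnt3a both lost it without slide 1 (-2.58, 0.133 for OMD and -0.91, 0.133 for DCN) or NT_Wnt3a replicate 1 (-2.39, 0.05004 and -0.86, 0.0510). From the 2 compared conditions alone adjusted p was 0.0828 for DCN, 0.0144 for OMD and 0.0418 for EPYC without Wnt3a, and 0.147 for DCN and 0.178 for OMD with it. Under the spike-in scaling 129 genes rose and 1486 fell without Wnt3a, in place of 3061 and 2466, with the median of all genes at -0.31 and 0.25 without and with Wnt3a, and relative to these OMD stood at -2.03 and -2.47 and DCN at -0.66 and -0.88, where DCN was not called (adjusted p = 0.0670 and 0.416). LUM differed from NT by 0.07 (adjusted p = 0.843), FMOD by -0.44 (adjusted p = 0.443) and EPYC by -1.25 (adjusted p = 0.131).

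Ordered by mean level over the 8 conditions, LUM, DCN and EPYC stood highest in NT_Wnt3a and lowest in an siCTNNB1 condition, and FMOD and OMD highest in NT and lowest in FZD8CRD_Wnt3a. LUM ran from 3.63 ± 0.19 (SD, n = 3) in NT_Wnt3a through siCTRL_Wnt3a, siCTRL, NT, FZD8CRD, FZD8CRD_Wnt3a and siCTNNB1_Wnt3a down to 1.64 ± 0.07 in siCTNNB1, and none of its 7 neighbouring steps passed the test. DCN ran from 6.08 ± 0.12 through NT, siCTRL_Wnt3a, siCTRL, FZD8CRD, FZD8CRD_Wnt3a and siCTNNB1_Wnt3a to 3.18 ± 0.25 in siCTNNB1, with 2 steps called, NT_Wnt3a to NT and siCTRL to FZD8CRD. EPYC ran from -0.44 ± 0.61 through siCTRL_Wnt3a, NT, siCTRL, FZD8CRD and FZD8CRD_Wnt3a to the floor in both siCTNNB1 conditions, with 0 neighbouring steps called. LUM, DCN and EPYC therefore share the first place and end in the siCTNNB1 conditions, and 2 of the steps between neighbours were called, both for DCN. FMOD ran from -2.90 ± 0.30 in NT through NT_Wnt3a, siCTRL, siCTRL_Wnt3a, FZD8CRD, siCTNNB1 and siCTNNB1_Wnt3a to -5.52 ± 0.18 in FZD8CRD_Wnt3a, whose step from siCTNNB1_Wnt3a alone was called. OMD ran from -1.37 ± 0.63 in NT through NT_Wnt3a, siCTNNB1, FZD8CRD, siCTRL, siCTNNB1_Wnt3a and siCTRL_Wnt3a to -5.75 ± 0.35, with 0 steps called. Without FZD8CRD replicate 3 the place of FZD8CRD changed in 4 of the 5 orders: it then stood above siCTRL for LUM (2.92) and EPYC (-2.82), above siCTRL_Wnt3a for FMOD (-3.38) and above siCTNNB1 for OMD (-2.42), and for DCN it stayed below siCTRL, a step of 0.59 that kept its call (adjusted p = 0.0285). The first and last places stayed the same for all 5 genes, and 9 of their neighbouring steps were then called. Of the 28 pairs of conditions, 18 were called for LUM, 22 for DCN, 19 for EPYC, 12 for FMOD and 13 for OMD, where the median over all genes was 4 pairs and 2.22%, 0.105%, 1.27%, 18.9% and 14.1% of all genes had at least as many. Without that array they were 24, 23, 21, 19 and 17, with a median of 5 pairs over all genes.

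Across the 24 arrays DCN, LUM and EPYC ran closest together, and FMOD lay between them and OMD. Pearson's r was 0.953 for LUM with EPYC, 0.951 for DCN with EPYC and 0.895 for LUM with DCN, and it was 0.812 for FMOD with OMD. FMOD gave 0.735 with EPYC, 0.698 with DCN and 0.566 with LUM, and OMD 0.447, 0.404 and 0.207 with the same genes. These values describe 24 arrays that share conditions and slides. As deviations from the condition means, LUM with EPYC gave 0.903, EPYC with FMOD 0.823, FMOD with OMD 0.815, LUM with DCN 0.746 and DCN with EPYC 0.737, values that FZD8CRD replicate 3 carried in part. Without that array LUM with EPYC gave 0.663, DCN with EPYC 0.623, LUM with DCN 0.619 and FMOD with OMD 0.560, while EPYC with FMOD gave 0.107. LUM with FMOD went from 0.692 to -0.344, LUM with OMD from 0.570 to -0.072 and EPYC with OMD from 0.699 to 0.210. DCN with FMOD went from 0.548 to 0.120 and DCN with OMD from 0.347 to -0.089. Among all genes with a symbol, the 5 most like LUM were EPYC (r = 0.953), HAPLN1 (r = 0.929), IGFBP5 (r = 0.923), RDH10 (r = 0.920) and DLK2 (r = 0.906). HAPLN1 is a link protein and IGFBP5 an IGF-binding protein. For DCN they were DPT (r = 0.973), EPYC (r = 0.951), TMEM123 (r = 0.940), RNASET2 (r = 0.933) and IFNGR1 (r = 0.931), where DPT is dermatopontin. For EPYC they were IFNGR1 (r = 0.956), LUM (r = 0.953), DCN (r = 0.951), DPT (r = 0.943) and IGFBP5 (r = 0.932), with LUM and DCN both included. For FMOD they were GGT5 (r = 0.963), HAGHL (r = 0.953), SUSD2 (r = 0.951), ALDOC (r = 0.950) and DHCR7 (r = 0.950), none of them another member. For OMD they were RIPOR2 (r = 0.968), LRP1B (r = 0.956), APOB (r = 0.948), RAB11FIP3 (r = 0.944) and CGNL1 (r = 0.944), where APOB is the gene of apolipoprotein B.

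LUM, DCN and EPYC are neighbours on chromosome 12, where RefSeq (GRCh38.p14) gives the order EPYC, KERA, LUM and DCN. KERA, which lies between them, was seen on 0 of 24 arrays, as was CCER1 next to EPYC. Beyond the cluster, ATP2B1, a calcium pump gene, changed by 0.06 with Wnt3a (adjusted p = 0.868) and -0.06 with CTNNB1 siRNA and Wnt3a (adjusted p = 0.867). BTG1, on the other side, stood at -0.31 (adjusted p = 0.107) and -0.06 (adjusted p = 0.878), so neither flanking gene was called in these 2 comparisons. With FZD8_CRD and no Wnt3a, where DCN fell, BTG1 had a log2 change of -0.33 (adjusted p = 0.0217), and of -0.31 without FZD8CRD replicate 3 (adjusted p = 0.0575). On chromosome 9 the order is OGN, OMD and ASPN, with CENPP listed before them and ECM2 after. OGN and ASPN were at background beside OMD, while ECM2, which makes another leucine-rich matrix protein, fell with control siRNA (log2 change -1.39, adjusted p = 0.00160) and with FZD8_CRD and Wnt3a (-1.73, adjusted p = 9.27e-05), as OMD did, and CENPP, a centromere protein gene, rose in both, by 0.69 (adjusted p = 0.00132) and 0.71 (adjusted p = 0.000481). FMOD lies beside PRELP on chromosome 1, flanked by BTG2, which rose with FZD8_CRD and Wnt3a by 0.31 (adjusted p = 0.0126) where FMOD fell.

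RefSeq promoters of 300 bases, from 250 before to 50 after the start, were matched for 6 of the 10 members, BGN, EPYC, OGN, FMOD, PRELP and ASPN. Those of EPYC and FMOD are shown, as the 2 tested members with an entry. Both strands were searched for CTTTGA and CTTTGT, short words that TCF/LEF factors, the partners of beta-catenin, are known to bind, and for TATAAA, the TATA box, with matches in capitals. EPYC (GRCh38.p14, minus strand, chr12:91004923-91005222) holds CTTTGT 2 times, starting 208 and 6 bases before the start, and TATAAA 3 times, of which 1 is on the opposite strand. FMOD (GRCh38.p14, minus strand, chr1:203351073-203351372) holds 0 matches of the first 2 words and 1 of TATAAA, on the opposite strand, 177 bases before the start. Of 35116 such promoters 12.9% hold CTTTGA, 16.1% CTTTGT, 26.2% either of these and 11.5% TATAAA. BGN holds CTTTGA 1 time, 169 bases before the start. The first 2 words share 5 letters and cannot lie at the same place on 1 strand. A match is a description, not a site or a cause.
EPYC: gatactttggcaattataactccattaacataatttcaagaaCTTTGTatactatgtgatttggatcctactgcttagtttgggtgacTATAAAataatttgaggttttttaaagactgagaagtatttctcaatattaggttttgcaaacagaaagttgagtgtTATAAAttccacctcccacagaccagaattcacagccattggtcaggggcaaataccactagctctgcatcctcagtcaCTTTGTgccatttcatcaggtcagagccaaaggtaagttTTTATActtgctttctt
FMOD: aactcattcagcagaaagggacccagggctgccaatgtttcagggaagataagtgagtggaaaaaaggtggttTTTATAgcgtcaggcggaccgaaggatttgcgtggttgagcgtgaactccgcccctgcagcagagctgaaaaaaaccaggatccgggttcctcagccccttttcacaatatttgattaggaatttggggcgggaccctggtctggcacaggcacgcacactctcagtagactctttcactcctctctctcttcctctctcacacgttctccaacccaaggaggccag

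Of 7 other genes of small leucine-rich proteoglycans, 5 were tested, and PODN (0 of 24 arrays well above background) and OPTC (3 of 24) were not. TSKU, the gene of tsukushi, which is known to bind Wnt, BMP and TGF-beta family proteins, read 4.36, 4.32 and 4.08 in NT and 3.72, 3.46 and 4.02 in NT_Wnt3a, with no overlap. It fell with Wnt3a by 0.52 without transfection (SE 0.11, adjusted p = 0.0129) and by 0.54 after control siRNA (adjusted p = 0.0186), and rose with CTNNB1 siRNA by 0.37 and 0.60 without and with Wnt3a (adjusted p = 0.0421 and 0.00152), on 3 of 3 slides each. These 4 calls of TSKU were kept in 4, 2, 1 and 8 of 9 fits without 1 slide or array, in that order, and in 0 of 4 cases under the spike-in scaling, where TSKU stood at -0.54, -0.57, 0.41 and 0.61 relative to the median of all genes. With FZD8_CRD TSKU fell, as DCN did, from a mean of 4.25 in NT to 3.70 in FZD8CRD. That call was kept in 11 of 11 other ways of processing and 9 of 9 fits without 1 slide or array. With Wnt3a it fell from 3.73 to 3.40, kept in 8 of 11 and 3 of 9. In these 2 comparisons 22.0% and 18.9% of all genes fell. In the 4 comparisons given first, its direction was opposite to that of LUM, DCN and EPYC, which were not called after control siRNA. PODNL1, the gene of podocan-like 1, moved as they did with CTNNB1 siRNA, at -1.06 and -1.34 (adjusted p = 0.00196 and 0.000183), and stood at 0.65 with Wnt3a without transfection (adjusted p = 0.0690, or 0.0393 with the slide as a block). NYX and CHAD, the genes of nyctalopin and chondroadherin, were called in 0 of the 4 Wnt3a responses, as was ECM2.

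The genes that work with these proteoglycans were followed as 5 lists. Of all genes, 3.13% rose with Wnt3a without transfection, 1.06% after control siRNA, 0.0365% after CTNNB1 siRNA and 4.54% with FZD8_CRD. Without FZD8CRD replicate 3, 19.8% were called in the last. From the 2 conditions compared alone, 2 genes of all were called without transfection and 0 with FZD8_CRD. Most list calls in the first and all in the other were thus lost. After control siRNA that fit called 1307 genes. Under the spike-in scaling 25 genes of all rose without transfection. Of 11 collagen genes tested of 12, 6 rose without transfection and 0 fell, with a median of 0.61 against 0.02 over all genes. COL1A1 and COL1A2, the chains of type I collagen that DCN and LUM bind, rose by 1.87 and 1.15 (adjusted p = 0.00397 and 0.0102), COL5A1 by 1.16 and COL3A1 by 0.94. After control siRNA 7 collagen genes rose, after CTNNB1 siRNA 0 were called, with COL1A1 at 0.54 (adjusted p = 0.625) and COL5A1 at 0.94 (adjusted p = 0.0905), close to its 0.99 after control siRNA, and with FZD8_CRD 4 rose and 1 fell, or 3 and 1 without FZD8CRD replicate 3. COL1A1 rose with FZD8_CRD present by 2.66 (adjusted p = 0.000194), while LUM, DCN and EPYC did not rise; its response with FZD8_CRD minus that without was 0.79 (adjusted p = 0.540), and without FZD8CRD replicate 3 it was 1.36 (adjusted p = 0.0136), opposite in sign to that of LUM. In FZD8CRD COL1A1 read -0.40, -0.24 and 1.38, replicate 3 again apart, and in FZD8CRD_Wnt3a 2.96, 3.01 and 2.73. Of 12 protease genes tested of 13, 7 rose without transfection, among them MMP13 (1.97), MMP3 (1.68), MMP7 (1.44) and MMP2 (1.35), matrix metalloproteases known to cut collagens and proteoglycan cores, and 0 fell. After control siRNA 7 rose, after CTNNB1 siRNA 1 did, with MMP2 at 1.097 and 0.93 (adjusted p = 0.00756 and 0.0905), and with FZD8_CRD 7 rose and 1 fell, or 8 and 1 without FZD8CRD replicate 3, MMP7 rising by 2.22 with all arrays (adjusted p = 0.000191) and 2.53 without that one.

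Of 31 genes of glycosaminoglycan chain synthesis tested of 33, 7 rose without transfection and 1 fell, with a median of 0.06. SLC26A2, which brings in the sulfate the chains carry, read 2.71, 2.96 and 3.35 in NT and 4.28, 4.88 and 4.24 in NT_Wnt3a and rose by 1.46 (adjusted p = 1.28e-05, higher on 3 of 3 slides). CHPF2 and CHST11, which build and sulfate chondroitin, rose by 0.63 and 0.55, and PAPSS2, which activates sulfate, fell by 0.87 (adjusted p = 0.0216). SLC26A2 was, with all arrays, the only gene of the 5 lists called in the test of the response with FZD8_CRD minus that without it, at -1.22 (adjusted p = 0.0266, negative on 3 of 3 slides), and stood at -1.24 without FZD8CRD replicate 3 (adjusted p = 0.00124). In this test 0 genes of all were called from the conditions compared alone, without slide 1 or without FZD8CRD_Wnt3a replicate 2, so SLC26A2 lost its call there. Whether it was kept in the settings not named for it is not given here. After control siRNA 2 of the 31 rose, after CTNNB1 siRNA 0 did, and with FZD8_CRD 4 did, and 0 fell in each. When FZD8CRD replicate 3 was left out, 5 rose and 1 fell in the last, where 19.8% of all genes were called. Of 17 receptors and growth factors tested of 19, TGFB1, TGFB2 and TGFB3, ligands that DCN and FMOD bind, were the 3 called without transfection, at 0.52, 0.93 and 0.88 (adjusted p = 0.00877, 0.00833 and 0.0171). In that list 1 gene rose after control siRNA, 0 after CTNNB1 siRNA, and 3 rose and 3 fell with FZD8_CRD, or 6 and 4 without that array. Of 22 other proteoglycan core proteins tested of 23, 5 rose without transfection, led by VCAN, the large chondroitin sulfate proteoglycan versican, at 1.39 (adjusted p = 0.000681), and SPOCK1, or testican, at 1.03, with SDC3 at 0.65 and GPC2 at 0.55. There 2 rose after control siRNA, 2 after CTNNB1 siRNA, SPOCK1 at 0.81 (adjusted p = 0.0243) and ACAN, or aggrecan (adjusted p = 0.0184), being both, with VCAN at 0.71 after control siRNA and 0.64 after CTNNB1 siRNA (adjusted p = 0.0700 and 0.270), and 3 rose and 3 fell with FZD8_CRD, or 4 and 6 without that array.

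**Figure D5:**
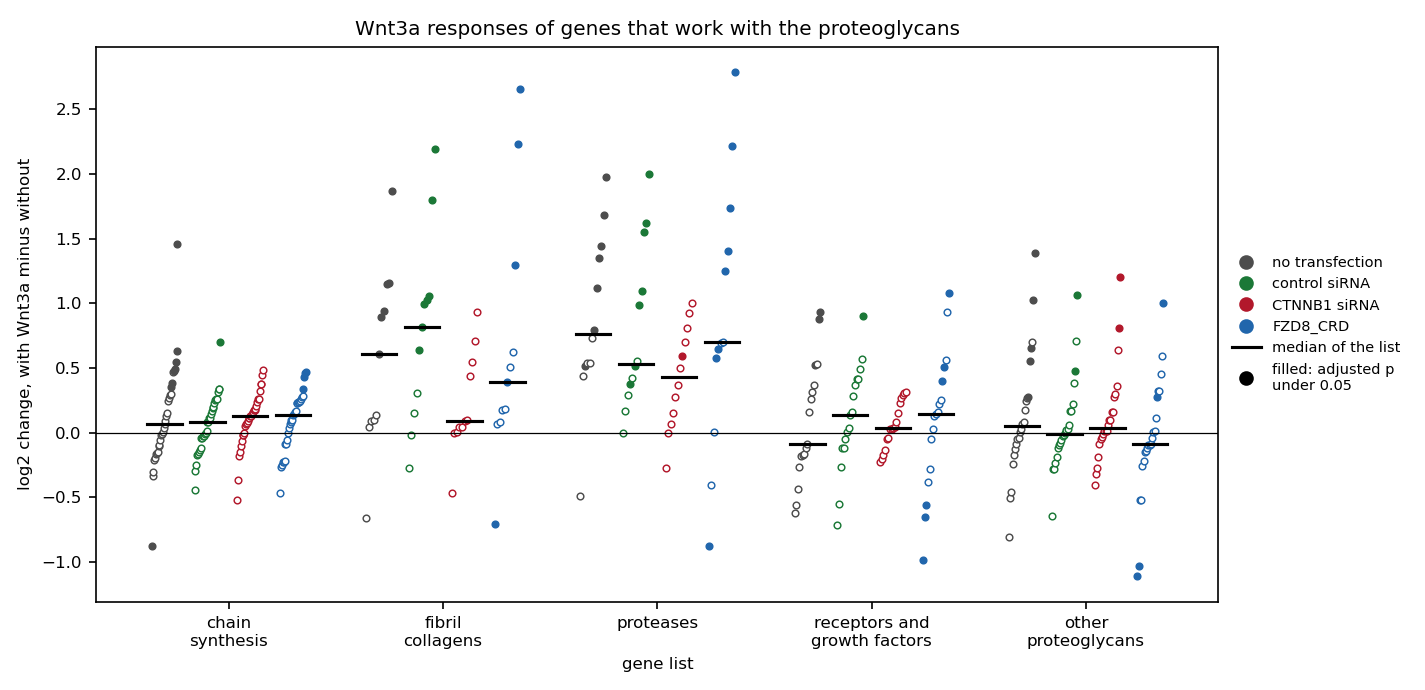
Log2 change with Wnt3a of each tested gene of 5 lists, in cells without transfection, after control siRNA, after CTNNB1 siRNA and with FZD8_CRD, with filled symbols for an adjusted p under 0.05 and a black line for the median of the list. Without transfection the fibril collagens and proteases lie mostly above 0, with medians of 0.61 and 0.77, and the chain synthesis genes lie around 0.

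All 5 hepatocyte genes (ALB, APOA1, TTR, SERPINA1, FGB) were well above background on all 24 arrays. The same held for all 5 biliary or progenitor genes (KRT7, KRT19, KRT8, KRT18, SOX9). It also held for 2 of 5 fibroblast or stellate, 1 of 5 cartilage or tendon, 3 of 5 macrophage or leukocyte and 4 of 5 endothelial markers. Being well above background was thus not particular to markers of the labelled cell type. Of the fibroblast or stellate markers, 4 of 5 were tested; THY1 was well above background on 0 arrays, and ACTA2, the brightest, gave at least 89.6% of the summed signal in every condition. That sum was 1069, 1009 and 946.8 percent of the 75th percentile in NT and 1148, 1300 and 1231 in NT_Wnt3a, and ACTA2 rose with Wnt3a by 0.32 (adjusted p = 0.00818) without transfection and by 0.27 with FZD8_CRD (adjusted p = 0.0121). Under the spike-in scaling ACTA2 stood at -0.08 in the first of these, or 0.29 relative to the median of all genes. PDGFRA, PDGFRB and DES, the other 3 tested, lay below 0 with Wnt3a without transfection, without a call, and the median was -0.16 for the 4 genes. Of the cartilage or tendon markers, 2 of 5 were tested, COL2A1 was so on 0 arrays, and ACAN was the brightest. Their sum was highest in siCTNNB1_Wnt3a, at 223, 197 and 150 percent, where EPYC, LUM and DCN were low. ACAN alone gave 96.67% of that sum and at least 71.35% in every condition, so the sum is mostly the level of 1 gene. Of the macrophage or leukocyte markers 4 of 5 were tested, with CD68 the brightest, at 37.7% to 63.85% of the sum by condition. Of the endothelial markers 5 of 5 were, with KDR the brightest, at 72.57% to 94.82%, so that sum too is mostly 1 gene. In FZD8CRD and FZD8CRD_Wnt3a, where FMOD and OMD differed, the leukocyte sum was 360.8, 330.1 and 383.8 and 424.8, 397.6 and 448.5 percent, and the endothelial sum 185.9, 169.2 and 98.63 and 83.47, 79.28 and 96.26. CSF1R rose with Wnt3a by 1.59 without transfection (adjusted p = 0.0392) and by 2.67 with FZD8_CRD, where CD68 rose by 0.91, and APOA1 and TTR by 2.22 and 2.62 (adjusted p = 0.0373 and 0.0277), and KDR fell by 0.98 (adjusted p = 0.00758). TEK, well above background on 5 of 24 arrays and at the floor in 2 of the 3 FZD8CRD arrays, was called as higher there, with no exact size. Without FZD8CRD replicate 3 CSF1R, CD68, APOA1, TTR and KDR stood at 3.40, 1.35, 3.23, 3.87 and -1.35, and all kept their calls. In that fit 1 other hepatocyte marker and 1 other leukocyte marker were called as lower. Of the biliary or progenitor markers, 1 was then called as higher and 1 as lower. The hepatocyte sum, with ALB the brightest, was 141900, 108500 and 76520 percent in NT and 40260, 37440 and 38440 in siCTRL, lower where OMD and DCN were lower. In FZD8CRD, where DCN, FMOD and OMD were lower than in NT, it was 36440, 24670 and 36690 percent, and beside the FZD8CRD sums above the endothelial sum in NT was 347.3, 424.9 and 347.6 and the leukocyte sum 676.4, 567.0 and 419.3. The cartilage sum was 86.03, 75.56 and 48.51 in NT and 30.77, 26.42 and 29.65 in FZD8CRD. With CTNNB1 siRNA, where LUM, DCN and EPYC were lower, the leukocyte sum was 335.6, 284.7 and 279.3, and with control siRNA 500.0, 539.0 and 447.8. The fibroblast sum was 1006, 1039 and 946.5 with CTNNB1 siRNA and 1138, 1154 and 1066 with control siRNA. The hepatocyte sum went the other way, at 61490, 47320 and 59110 with CTNNB1 siRNA, against the siCTRL values above. It was 26490, 19120 and 26260 in siCTRL_Wnt3a and 89300, 39290 and 90290 in NT_Wnt3a, where replicate 2 stood apart. With Wnt3a without transfection 0 of the 5 hepatocyte markers lay above 0, at a median of -1.08, and 0 were called. The part of any of these cell types in the members' changes was not tested.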

How the data were processed

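Total RNA of 24 HepaRG samples was read on one-colour Agilent arrays, 3 per condition, with 62976 spots each. Per the file headers, spot intensity is the background-corrected processed signal of Feature Extraction 10.7.1.1; the deposited table holds log2 values that the authors scaled to the 75th percentile and centred per probe, and it was used only as an alternative. Here intensity was divided by each array's 75th percentile (635 to 933 units), floored at 1.43% of it, and taken to log2; outlier spots were left out. Between 58.3% and 66.5% of spots per array were well above background. Probes so marked in all 3 arrays of a condition were kept (31067), and the brightest of each gene stood for it. R 4.3.3 and limma 3.58.1 (a mean for each condition, eBayes with trend) tested 24648 genes, with Benjamini-Hochberg adjustment over all, after tests on simulated data; 41 missing values were left out. Named genes are the 10 members, the other family genes, CTNNB1 and AXIN2, up to 4 called genes of each list with the largest Wnt3a response, the 5 genes most correlated with each tested member, flanking genes, and called markers. Members and lists were chosen with earlier results of these data known. Alternatives covered scaling, background, floor, filters, probes, thresholds, the replicate number as a block, and leaving out slides or arrays, where normexp ran on the median spot signal and so changed intensity measure and background together; values of the paper were not used here.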

Additional observations from a re-analysis of the deposited data

Results flagged for a closer look

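LUM was singled out because its Wnt3a response differed with FZD8_CRD: the response with it minus that without was -1.42 on the log2 scale (limma, adjusted p = 0.0478, negative on 3 of 3 slides), with all arrays, and -1.76 without FZD8CRD replicate 3. Its call was kept in 4 of 11 other ways of processing (lost with normexp on the median spot signal at -1.37, spike-in scaling at -1.43 relative to the median of all genes and deposited values at -1.43, with adjusted p of 0.0686, 0.652 and 0.0560) and in 4 of 15 fits without 1 slide or array. SLC26A2, the sulfate transporter, was singled out for the same reason, at -1.22 (adjusted p = 0.0266, negative on 3 of 3 slides) and -1.24 without that array. The call of SLC26A2 was lost from the conditions compared alone, without slide 1 and without FZD8CRD_Wnt3a replicate 2, where 0 genes of all were called. Whether it was kept in the settings not named for it is not given here. The cause of either difference was not tested.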

How the results depend on the processing

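A count is taken as moved where it changed by over 1.5 times or to or from 0. Of 147 member counts under other processing choices (the other DCN probe chosen after seeing the data), 28 moved, as did 37 of 135 with 1 array or slide left out; of 548 log2 changes 480 kept direction and call or its absence, 60 lost the call, 7 gained it and 1 reversed, AXIN2 with Wnt3a without transfection at -0.02469 under spike-in scaling. With 1 array or slide left out, 337 of 447 log2 changes kept direction and call or its absence, 109 lost the call and 1 gained it. Of the counts of genes, 44 of 147 and 83 of 135 moved. Same-number samples shared variation (82 of 84 pairs over 0.1, mean 0.3843, other pairs -0.1909), but the labels give only a number and a slide, so pairing was not assumed; the fits with a replicate block called 7847 genes in place of 5527 for control siRNA without Wnt3a, 3822 in place of 2607 for CTNNB1 siRNA with it, and 13078 in place of 10316 and 11914 in place of 9156 for FZD8_CRD without and with it, and their other counts are below where they moved. The cause was not tested. Counts follow as main value, then, by the rule above, alternatives that moved it; smaller shifts are left out. Wnt3a response without transfection: 1335 genes (877 no filter, 292 spike-in scaling, 2797 replicate block, 2 only conditions compared), leave-one-out 17 to 6253; 3 members (1 no filter, 0 spike-in scaling, 0 only conditions compared), leave-one-out 0 to 4. Wnt3a response after control siRNA: 497 genes (275 no filter, 58 spike-in scaling, 1035 replicate block, 1307 only conditions compared), leave-one-out 4 to 582; 0 members (2 study thresholds, 1 quantile normalization, 1 normexp background, 3 only conditions compared), leave-one-out 0 to 1. Wnt3a response after CTNNB1 siRNA: 10 genes (317 study thresholds, 5 normexp background, 0 spike-in scaling, 37 replicate block, 6 no intensity trend), leave-one-out 0 to 108. Wnt3a response with FZD8_CRD: 2030 genes (246 spike-in scaling, 3229 replicate block, 0 only conditions compared), leave-one-out 0 to 5234; 2 members (1 no filter, 1 all 24 arrays above background, 1 spike-in scaling, 0 only conditions compared), leave-one-out 0 to 4. Difference of Wnt3a responses, CTNNB1 siRNA against control siRNA: 4 genes (1 normexp background, 7 mean of the probes of a gene, 0 spike-in scaling, 9 replicate block, 43 only conditions compared, 7 no intensity trend), leave-one-out 0 to 11; 0 members (1 only conditions compared). Difference of Wnt3a responses, FZD8_CRD against none: 18 genes (28 quantile normalization, 11 normexp background, 5 floor of 1 intensity unit, 41 no filter, 3 all 24 arrays above background, 148 replicate block, 0 only conditions compared, 42 no intensity trend, 6 deposited values), leave-one-out 0 to 2897; 1 member (0 floor of 1 intensity unit, 0 no filter, 0 all 24 arrays above background, 0 spike-in scaling, 2 replicate block, 0 only conditions compared, 0 deposited values), leave-one-out 0 to 5. Difference of Wnt3a responses, control siRNA against no transfection: 0 genes (8 no filter, 8 no intensity trend), leave-one-out 0 to 1. Control siRNA against no transfection, without Wnt3a: 5527 genes (1615 spike-in scaling, 3650 only conditions compared), leave-one-out 267 to 6774; 2 members (1 all 24 arrays above background, 1 spike-in scaling), leave-one-out 0 to 3. Control siRNA against no transfection, with Wnt3a: 2184 genes (216 spike-in scaling, 3669 replicate block, 1 only conditions compared), leave-one-out 1 to 3975; 2 members (1 all 24 arrays above background, 1 spike-in scaling, 0 only conditions compared), leave-one-out 0 to 3. CTNNB1 siRNA against control siRNA, without Wnt3a: 2590 genes (176 spike-in scaling, 4056 replicate block, 4270 only conditions compared), leave-one-out 488 to 2295; 3 members (5 only conditions compared), leave-one-out 1 to 4. CTNNB1 siRNA against control siRNA, with Wnt3a: 2607 genes (650 spike-in scaling), leave-one-out 588 to 2576. FZD8_CRD against none, without Wnt3a: 10316 genes (6317 only conditions compared), leave-one-out 6192 to 11187; 4 members (2 all 24 arrays above background, 1 only conditions compared), leave-one-out 2 to 4. FZD8_CRD against none, with Wnt3a: 9156 genes (2332 spike-in scaling), leave-one-out 4101 to 10066; 5 members (3 all 24 arrays above background).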
